A study of Mus musculus with 12 samples.

Results

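The nuclear genes for the subunits of oxidative phosphorylation were followed, complex by complex, in liver and quadriceps muscle of young mice whose mothers had or had not received taurine during pregnancy. Members were chosen by gene symbol, though with earlier results of these data known. They were the Nduf subunits without the Ndufaf assembly factors, the 4 Sdh genes and the Uqcr genes. Also taken were Cyc1, Cycs, the Cox4 to Cox8 families with Cox7a2l, and the Atp5 genes. Each gene was represented by the probe set with the highest mean in that tissue, out of probe sets annotated to a single symbol. This gave 84 genes of the 18193 on the array with such a probe set: 34 in complex I, 4 in complex II, 9 in complex III, Cycs as cytochrome c, 19 in complex IV and 17 in complex V. Ndufa4 and its relative Ndufa4l2 were counted with complex IV, where the Ndufa4 protein is found. In each tissue 82 of the 84 passed a filter on dim probe sets, the exceptions being Ndufb4 and Cox7b2 in both.

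The NP+tau group was offspring of C57BL/6 dams that ate a normal protein diet with 20% casein and had 1% taurine in their drinking water through gestation. The NP group was offspring of C57BL/6 dams on the same diet with unsupplemented water, so both groups share the casein diet and differ in the taurine of the mother, not of the weaned pup. Tissues were collected from offspring aged 4 weeks, and 3 livers and 3 quadriceps muscles per group were hybridized to Affymetrix mouse whole-genome arrays. The methods state that the pups of a group had different mothers and that each gave both tissues, but the labels do not tie a liver to a muscle. Values are log2 expression values, made within each tissue, so that no level was tested between tissues or between genes. Where levels of both tissues or of several genes stand side by side, they are descriptions only.

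Oxidative phosphorylation passes electrons from NADH (complex I) and succinate (complex II) through ubiquinone to complex III, on through cytochrome c to complex IV, and to oxygen, while the protons pumped by complexes I, III and IV drive the ATP synthase, complex V. Complex II is made wholly from nuclear genes. The other complexes combine nuclear subunits with a few encoded by mitochondrial DNA, for which no probe set was annotated here, so these are not analysed. Several complex IV subunits come in a common form and a form typical of heart and skeletal muscle, and the liver is built on the common forms.

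Promoters of members are shown because nuclear respiratory genes are known for binding sites of NRF1 and of ETS factors such as GABPA near their starts, and the muscle form of a subunit can be set beside its common form. RefSeq promoters (GRCm38.p6, 250 bases before to 50 after the start) were matched for 68 of the 84 members. Those without an entry were Atp5a1, Atp5mpl, Cox4i1, Cox4i2, Cox6a2, Cox6c, Cox8c, Cyc1, Ndufa2, Ndufa4l2, Ndufb9, Ndufs1, Sdhc, Uqcrb, Uqcrc2 and Uqcrq. Searched on both strands, the NRF1 letters GCGC and TGCGC parted by any 1 base stood in 15 of the 68 (22.1%, against 5.19% of 27025 genes with a promoter) and the ETS letters CCGGAAG in 17 (25.0% against 9.93%). The YY1 letters AAGATGGCG stood in 6 (8.82% against 1.64%), the CRE letters TGACGTCA in 4 (5.88% against 2.03%), the E-box CAGCTG in 6 (8.82% against 18.3%), TATAAA in 8 (11.8% against 15.7%) and the MEF2 letters CTA and TAG parted by any 4 bases in 1 (1.47% against 4.23%). No member had matches of different motifs that overlapped. The NRF1 letters stood in 5 of the 31 promoters of complex I, 2 of 3 of complex II, 1 of 5 of complex III, 1 of 13 of complex IV and 6 of 15 of complex V, and the ETS letters in 4, 2, 2, 3 and 6 of them. The sequences below are the common and the muscle form of subunit 8 (Cox8a, chr19:7217567-7217866, and Cox8b, chr7:140900397-140900696), the common form of subunit 6a (Cox6a1, chr5:115348909-115349208), cytochrome c (Cycs, chr6:50566520-50566819) and Cox7a2l (chr17:83514284-83514583), all on the minus strand and written in the direction of the gene, with matches to any of these letters in capitals.
Cox8a: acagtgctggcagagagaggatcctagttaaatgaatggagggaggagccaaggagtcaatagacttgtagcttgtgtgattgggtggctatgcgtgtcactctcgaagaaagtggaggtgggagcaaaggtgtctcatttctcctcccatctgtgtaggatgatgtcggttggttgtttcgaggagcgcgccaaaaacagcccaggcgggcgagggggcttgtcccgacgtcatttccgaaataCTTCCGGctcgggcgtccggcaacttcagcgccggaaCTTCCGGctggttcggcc
Cox8b: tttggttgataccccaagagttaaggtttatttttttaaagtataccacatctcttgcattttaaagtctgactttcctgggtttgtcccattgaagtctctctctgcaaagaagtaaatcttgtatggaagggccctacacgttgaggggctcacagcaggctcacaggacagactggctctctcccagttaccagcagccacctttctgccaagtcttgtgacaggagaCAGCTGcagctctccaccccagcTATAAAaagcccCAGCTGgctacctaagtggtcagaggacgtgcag
Cox6a1: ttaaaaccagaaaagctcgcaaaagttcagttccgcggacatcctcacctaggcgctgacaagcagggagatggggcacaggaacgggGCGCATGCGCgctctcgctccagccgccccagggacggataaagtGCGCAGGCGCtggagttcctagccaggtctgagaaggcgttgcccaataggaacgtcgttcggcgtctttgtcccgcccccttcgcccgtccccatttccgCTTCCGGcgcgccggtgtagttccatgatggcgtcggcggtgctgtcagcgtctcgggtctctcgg
Cycs: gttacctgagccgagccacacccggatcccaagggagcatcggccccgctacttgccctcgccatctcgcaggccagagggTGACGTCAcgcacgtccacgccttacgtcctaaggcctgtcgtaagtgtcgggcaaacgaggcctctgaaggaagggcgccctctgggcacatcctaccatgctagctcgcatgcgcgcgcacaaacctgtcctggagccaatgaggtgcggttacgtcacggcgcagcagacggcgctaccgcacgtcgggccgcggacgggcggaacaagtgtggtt
Cox7a2l: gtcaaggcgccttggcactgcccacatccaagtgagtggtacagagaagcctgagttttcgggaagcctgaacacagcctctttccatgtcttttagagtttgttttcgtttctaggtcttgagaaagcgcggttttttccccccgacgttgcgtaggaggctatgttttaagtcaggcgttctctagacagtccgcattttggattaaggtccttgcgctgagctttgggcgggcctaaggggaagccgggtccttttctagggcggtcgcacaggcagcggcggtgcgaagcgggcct
Cox8a held the ETS letters at bases 246 to 252 and 283 to 289, around the start, and Cox8b held 2 E-boxes, at bases 232 to 237 and 267 to 272, on either side of TATAAA at bases 255 to 260. Cox6a1 held the NRF1 letters at bases 89 to 98 and 134 to 143 and the ETS letters at bases 235 to 241. Cycs held the CRE letters at bases 82 to 89, and the Cox7a2l window matched none of them. A match describes the letters only, not binding.

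The arrays differed in ways that bear on every value below. Liver NP+tau replicate 1 lay farthest from the others, with a median absolute deviation from the median liver array of 0.45, against 0.0769 to 0.169 for the other 5. Xist, which marks female cells, was high in NP+tau replicate 1 (11.08 in liver and 10.87 in muscle), low in NP+tau replicates 2 and 3 (5.07 to 5.96) and high in every NP sample (10.85 to 11.78). The methods describe groups of mixed sex, whereas Xist was high in all 3 NP samples of each tissue, so sex and diet partly coincide here. Tissue identity was as labelled, with the 10 hepatocyte markers averaging 13.4 to 13.5 in NP+tau liver and 13.3 to 13.6 in NP liver, and the 10 skeletal muscle fibre markers 14.33 to 14.35 in NP+tau muscle and 14.03 to 14.33 in NP muscle. In bulk tissue, fewer cells of a type and less RNA per cell cannot be told apart.

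Some probe sets were dim in both tissues for genes known to be abundant, such as that of Cox7c, a small complex IV subunit (mean level 5.08 in liver and 5.54 in muscle), so the level of such a probe set says little about the transcript. Spread within groups was small, with a median SD of 0.183 over the members among the 3 NP+tau livers and 0.154 among the 3 NP livers, against 0.329 and 0.176 over all probe sets. In muscle the median member SD was 0.184 in both NP+tau and NP, against 0.232 and 0.19 over all probe sets.

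The muscle forms of complex IV subunits separated the tissues. As the tissues were normalized apart, each gene is placed by the percentile of its mean among all probe sets of the tissue, as a description with no test. Cox6a2, the heart and muscle form of subunit 6a, was at 6.83, 6.50 and 6.47 in NP+tau liver and 6.30, 6.33 and 6.17 in NP liver, a mean at percentile 74.1 of the liver probe sets, and at 13.48, 13.15 and 13.17 in NP+tau muscle and 13.36, 13.41 and 13.38 in NP muscle, at percentile 99.8. Cox8b, the muscle form of subunit 8, stood at percentile 54.6 in liver and 99.8 in muscle. Cox7a1, the muscle form of subunit 7a, stood at percentile 73.9 in liver and 98.9 in muscle. All 12 values of each of these genes split by tissue without overlap, as the plot of isoform levels shows. The common forms had percentiles of 94.4 or above in both tissues. Cox7a2 was at percentile 99.7 in liver and 99.8 in muscle, Cox4i1, the common form of the largest nuclear subunit, at 99.6 and 99.8, Cox6a1 at 99.9 in liver and 98.7 in muscle, and Cox8a at 98.2 in liver and 94.4 in muscle. Cox4i2, the lung-enriched form of subunit 4, was at percentile 49.8 in liver and 56.9 in muscle. Cox6b2 and Cox8c, known from testis, were at percentile 71.6 and 80.9 in liver and 63.9 and 75.4 in muscle. Ndufa4 was at percentile 98.9 in liver and 99.4 in muscle, and Ndufa4l2, induced by low oxygen, at 71.4 in liver and 83.0 in muscle.

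**Figure D1:**
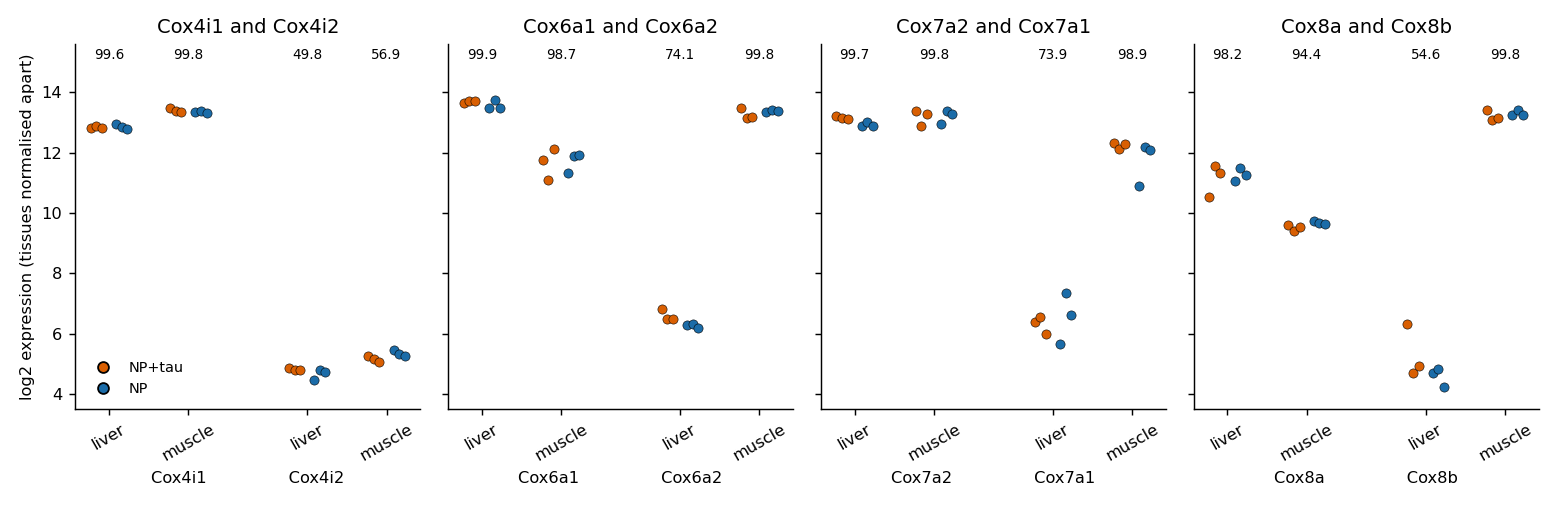
Log2 expression (vertical axis) of the common and the second form of complex IV subunits 4, 6a, 7a and 8 on each array, liver left of muscle, with NP+tau points left of NP points and the percentile of the mean among all probe sets of the tissue printed above. Cox6a2, Cox7a1 and Cox8b lie at 4.24 to 7.36 in liver and at 10.9 or above in muscle, while Cox4i1 and Cox7a2 lie at 12.79 or above in both.

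In liver, no member passed the test of NP+tau against NP, while most members had a slightly higher mean in NP+tau. With limma, 0 of 82 members had an adjusted p under 0.05 in either direction (0% of the 29274 probe sets higher and 0% lower). At an unadjusted p under 0.05 there were 0 members higher (0.700% of all probe sets) and 1 lower (3.99% of all), Cox7a2l. That count used the brightest probe set per gene. Other kept probe sets under 0.05 were of Cycs (0.38 and 0.51), Uqcr10 (0.68) and Cox7a2l (-0.55). Of the 46 genes with another kept probe set, 33 had the same sign in all. The difference was above 0 for 63 members, 76.8%, against 45.8% of all probe sets, and below 0 for 19, against 54.2% of all, with a median of 0.16 against -0.04. Members were mostly bright, with 73 of the 82 above percentile 95 of the liver levels. With a stricter filter on dim probe sets (percentile 50), 76.5% of members were above 0, against 39.7% of all probe sets. All 3 NP+tau livers lay above all 3 NP livers for 27 members, 32.9%, against 5.73% of all probe sets, and below them for 1 member, 1.22%, against 9.11%. The differences were small, within 0.5 on the log2 scale for 79 of the 82. The members' median size of difference was 0.193, against 0.238 over all probe sets, and their median standard error was 0.184. With the Xist level added to the fit as a covariate, 10 members were called in liver (7 higher and 3 lower, 12.2%, against 32.3% of all probe sets) and 0 in muscle. In the liver fit NP+tau replicate 1 is the only NP+tau sample at the Xist level of the NP samples.

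**Figure D2:**
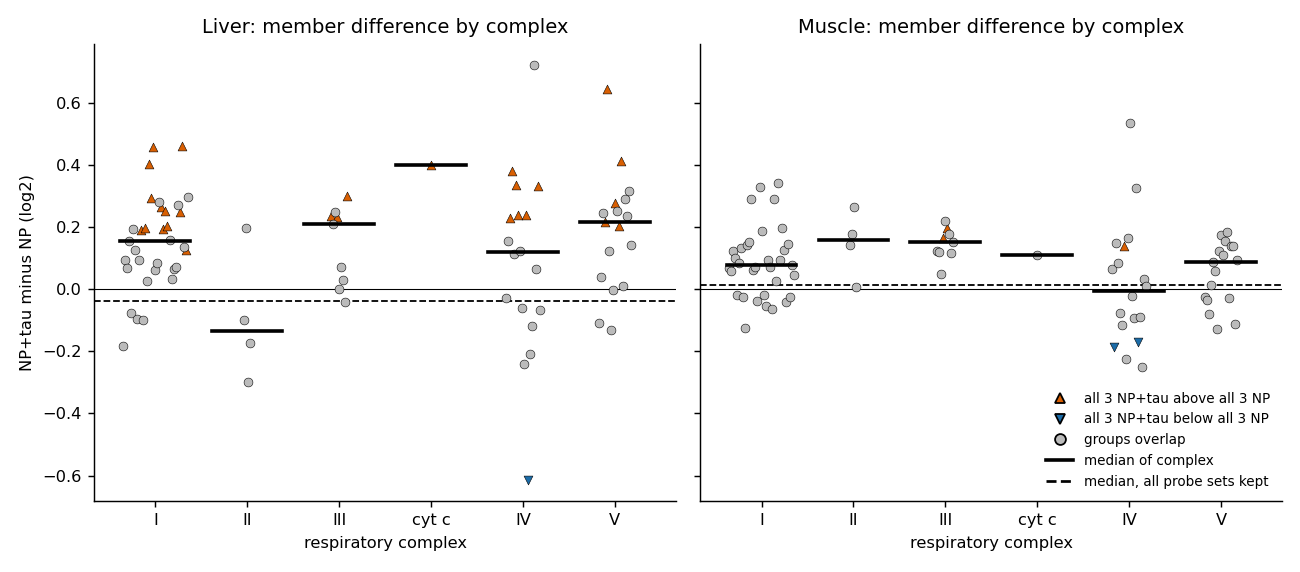
Difference NP+tau minus NP (vertical axis, log2) of each of the 82 members tested, by complex, in liver (left) and muscle (right), with triangles for genes whose 3 NP+tau and 3 NP values do not overlap, short lines for the median of a complex and a dashed line for the median of all probe sets. In liver 27 members are upward triangles and the complex II median lies below 0, whereas in muscle 3 are.

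Complex I, which takes electrons from NADH, had 29 of 33 members above 0 in liver, with a median of 0.16. In 12 the groups did not overlap, all higher (36.4%, against 5.73% of all probe sets). The core subunits measured here, Ndufs1, Ndufs3, Ndufs7, Ndufs8, Ndufv1 and Ndufv2, were all above 0, from 0.03 for Ndufs1, the largest iron-sulfur subunit, to 0.46 for Ndufs8, an iron-sulfur subunit near the quinone site. Ndufs8 was at 12.60, 11.60 and 11.81 in NP+tau liver and 11.50, 11.54 and 11.58 in NP liver (SE of the difference 0.27, adjusted p = 0.718, limma). The groups did not overlap, but the difference came mainly from NP+tau replicate 1, which is the array that stood apart, and was 0.16 without it. Ndufb2, an accessory subunit of the membrane arm, was at 10.94, 10.76 and 10.81 in NP+tau liver and 10.01, 10.51 and 10.61 in NP liver (difference 0.46, SE 0.21, adjusted p = 0.718, limma). Here the low sample was NP replicate 1, without which the difference was 0.27. The lowest difference of the complex was that of the X-linked accessory subunit Ndufa1, at -0.18, set by 11.67 in NP+tau replicate 1, without which it was -0.026.

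Complex II, which oxidizes succinate and shares that step with the citric acid cycle, was the only complex with a liver median below 0 (-0.14, 1 member above and 3 below 0). Sdhc, one of the subunits that anchor it in the membrane, was at 10.13, 11.37 and 11.28 in NP+tau liver and 10.80, 11.30 and 11.57 in NP liver. Sdhd, the other anchor, was at 10.38, 11.71 and 11.47 in NP+tau liver and 11.01, 11.52 and 11.55 in NP liver. In both genes the lowest value was NP+tau replicate 1, and the groups overlapped. Without that array the median of complex II was 0.10, while without any other single array it lay between -0.33 and -0.04. The flavoprotein Sdha differed by -0.10 (SE 0.26) and the iron-sulfur protein Sdhb by 0.20 (SE 0.18). The other 2 Sdha probe sets kept in liver gave 0.28 and -0.33. The other kept Sdhd probe set gave 0.12, against -0.17 for the one used, and the other of Sdhc gave -0.13. The signs for Sdha and Sdhd thus depended on the probe set.

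Complex III, which hands electrons from ubiquinol to cytochrome c, had 7 of 9 members above 0 in liver (median 0.21). In 3 the groups did not overlap, all higher (33.3%, against 5.73% of all probe sets): Cyc1, Uqcrb and Uqcrq. Cyc1, cytochrome c1, was at 12.53, 12.28 and 12.36 in NP+tau liver and 12.05, 12.27 and 12.14 in NP liver (difference 0.24, SE 0.17). Its NP+tau replicate 2 and NP replicate 2 were almost level. The highest difference was that of Uqcrq, a ubiquinone-binding subunit, at 0.30 (SE 0.19), with NP+tau replicate 1 highest at 12.67 and 0.18 without it. The Rieske iron-sulfur protein Uqcrfs1 differed by 0.03 (SE 0.22). Uqcrh, the hinge protein, was lowest at -0.04.

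Cycs, the soluble carrier between complexes III and IV, was at 12.72, 12.59 and 12.63 in NP+tau liver and 12.05, 12.34 and 12.36 in NP liver. All NP+tau livers were above all NP livers, and NP replicate 1 was the lowest. The means were 12.6 ± 0.0697 in NP+tau and 12.2 ± 0.175 in NP (SD, n = 3 each), a difference of 0.40 (SE 0.17, adjusted p = 0.718, limma), or 1.32-fold. The other 2 Cycs probe sets kept in liver had differences of 0.38 and 0.51.

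Complex IV, which passes electrons to oxygen, was the most mixed, with 11 members above and 7 below 0 in liver (median 0.12). Wholly above lay 6 (33.3%, against 5.73% of all probe sets) and wholly below 1 (5.56%, against 9.11% of all). That 1 was Cox7a2l, a factor that joins complexes III and IV into supercomplexes and of which C57BL/6 mice are known to carry a short form. Cox7a2l was at 9.60, 9.81 and 10.02 in NP+tau liver and 10.53, 10.43 and 10.31 in NP liver. Every NP+tau liver was below every NP liver, and no single array set the difference. The means were 9.81 ± 0.214 in NP+tau and 10.4 ± 0.112 in NP (SD, n = 3 each), a difference of -0.61 (SE 0.18, adjusted p = 0.718, limma). The other 2 Cox7a2l probe sets gave -0.58 and -0.55. Its homologues differed in the other direction or not clearly: Cox7a2 by 0.24 (SE 0.16) and Cox7a1 by -0.24 (SE 0.42).

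Cox5b, a zinc-binding subunit, was at 13.55, 13.22 and 13.19 in NP+tau liver and 12.80, 13.07 and 12.95 in NP liver (difference 0.38, SE 0.18). The groups did not overlap, and the 5 further Cox5b probe sets kept in liver had differences of 0.29 to 0.40. Ndufa4 differed by 0.33 (SE 0.18), with all NP+tau livers above all NP livers, as for Cox6a2 (0.33, SE 0.18), Cox6b1, the common form of subunit 6b (0.24, SE 0.17), and Cox7a2. Cox8b had the highest difference, 0.72 (SE 0.43), from a single high value, 6.31 in NP+tau replicate 1 beside 4.69 and 4.94 in the other NP+tau livers and 4.71, 4.83 and 4.24 in NP livers. Without that array the Cox8b difference was 0.23. The 10 skeletal muscle fibre markers also averaged highest in that array, at 5.16, against 4.54 and 4.56 in the other NP+tau livers and 4.42 to 4.49 in NP livers; their part in the Cox8b and Cox6a2 values was not tested. Cox4i1 (-0.03), Cox8a (-0.12), Cox6a1 (0.11), Cox4i2 (0.15), Cox6b2 (0.12), Cox8c (0.06), Ndufa4l2 (-0.07) and Cox7c (-0.21) overlapped between the groups.

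Complex V, the ATP synthase, had 14 of 17 members above 0 in liver (median 0.22). In 5 the groups did not overlap, all higher (29.4%, against 5.73% of all probe sets). Atp5e, the epsilon subunit of the rotating stalk, was at 12.62, 11.46 and 11.41 in NP+tau liver and 11.09, 11.25 and 11.21 in NP liver (difference 0.64, SE 0.34, adjusted p = 0.718, limma). The groups did not overlap, yet the size of the difference was set by NP+tau replicate 1, without which it was 0.25. Atp5k, which joins ATP synthases into dimers, had the next highest difference, 0.41 (SE 0.22). It was at 12.83, 12.15 and 12.28 in NP+tau liver and 11.89, 12.12 and 12.02 in NP liver, with NP+tau replicate 1 again the highest. Atp5g2, 1 of 3 genes for the c ring, had the lowest, -0.13 (SE 0.16), and the catalytic Atp5b differed by 0.04 (SE 0.22).

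**Figure D3:**
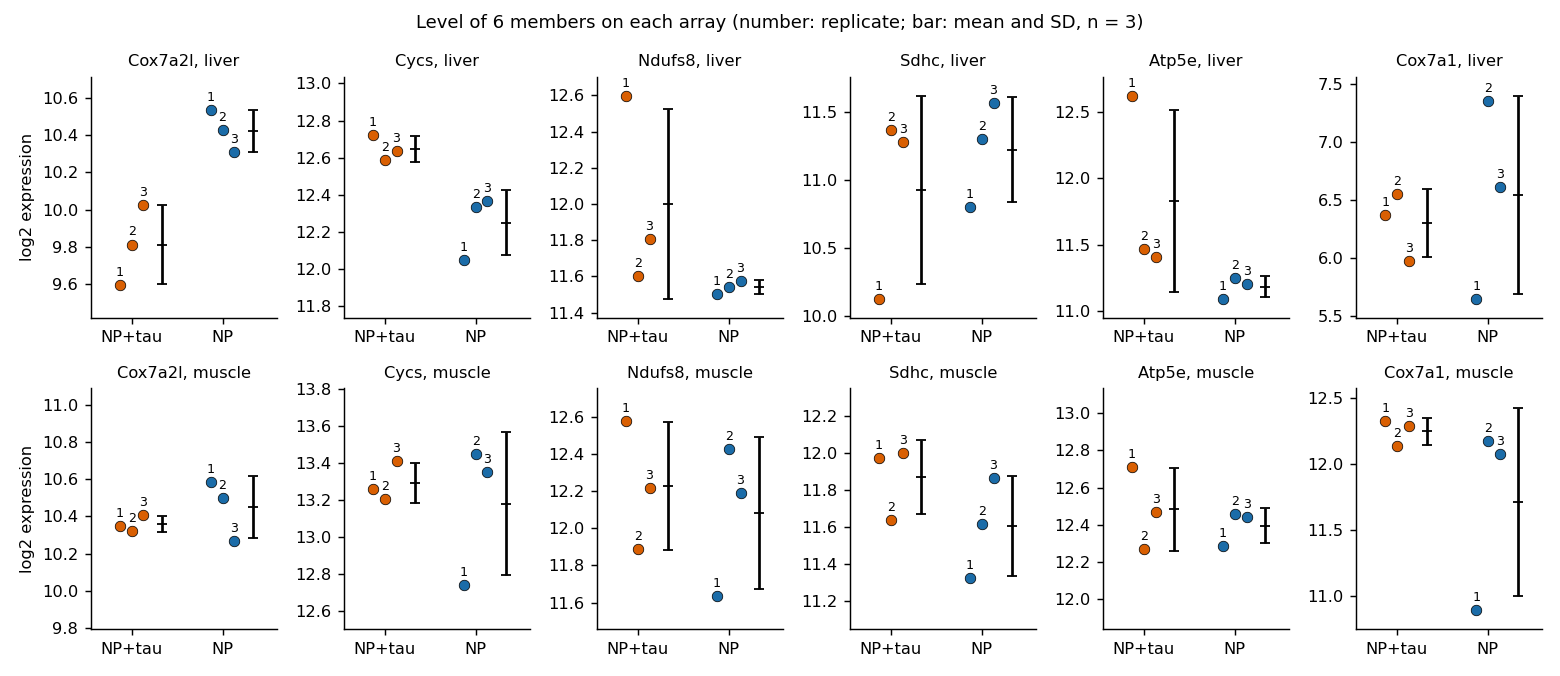
Log2 expression (vertical axis, own range in each panel) of 6 members on each array in liver (top) and muscle (bottom), NP+tau left of NP, with replicate numbers at the points and bars for mean and SD of 3. In liver the NP+tau points of Cox7a2l lie at 9.60 to 10.02, below all NP points, while high points of Ndufs8 and Atp5e and the low point of Sdhc are NP+tau replicate 1.

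Within liver, 2 arrays held most of the extreme values. NP replicate 1 was the lowest of the 6 livers in 43 of the 82 members (52.4%, against 19.0% of all probe sets). NP+tau replicate 1 was the highest in 36 members (43.9%, against 28.7% of all) and the lowest in 24 (29.3%, against 43.0%). The other NP+tau livers were the lowest in 1 member each. The median deviation of the members from their own means was 0.07, 0.08 and 0.06 in the NP+tau livers and -0.23, 0.00 and -0.03 in the NP livers, so the NP livers other than replicate 1 lay close to the NP+tau livers. Without NP replicate 1 the median member difference was 0.08, with 68.3% of members above 0 against 44.9% of all probe sets, and 32.9% not overlapping and higher against 8.57% of all. Without NP+tau replicate 1 the median was 0.16, with 90.2% of members above 0 against 51.6% of all.

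**Figure D4:**
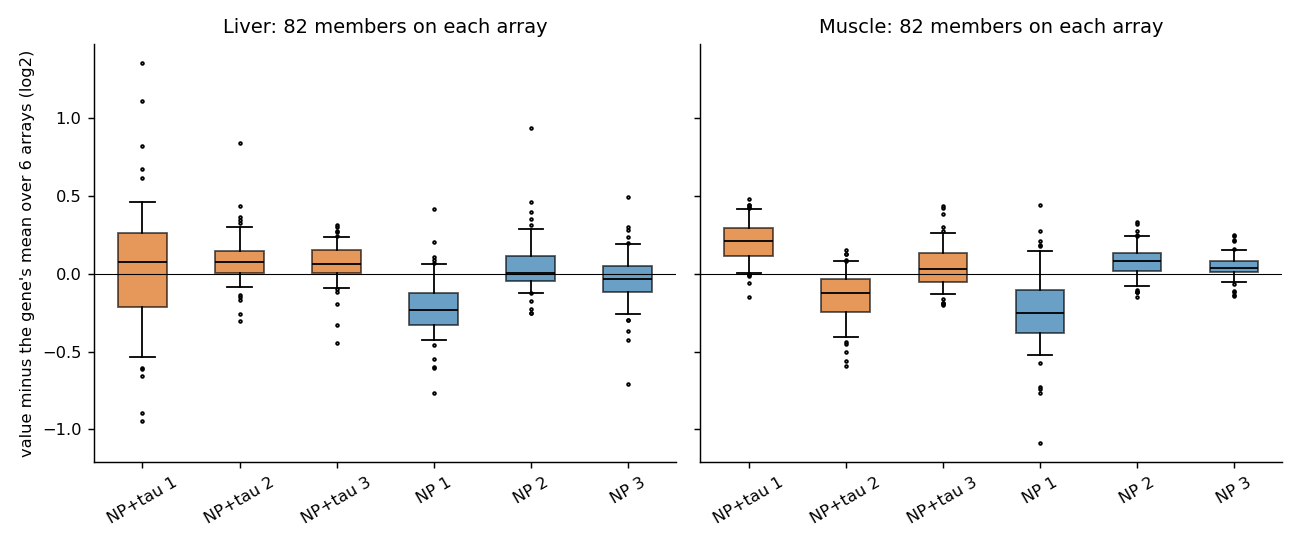
Deviation of the 82 members from each gene's mean over the 6 arrays of its tissue (vertical axis, log2), for NP+tau replicates 1 to 3 left of NP replicates 1 to 3, in liver (left) and muscle (right), with boxes for quartiles, whiskers for the 5th to 95th percentile and points for genes outside. Liver NP+tau replicate 1 has the widest box, and NP replicate 1 has the lowest median in both tissues, -0.23 in liver and -0.25 in muscle.

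The same liver arrays differed in markers of other cells. The 13 markers of macrophages and Kupffer cells averaged 8.39, 7.41 and 8.32 in NP+tau liver and 9.80, 8.81 and 9.12 in NP liver, with 13 of 13 differences below 0. The 10 neutrophil markers measured averaged 5.56, 5.13 and 5.04 in NP+tau liver and 8.96, 6.18 and 6.46 in NP liver, and the 6 fibroblast markers 8.17, 7.75 and 8.10 in NP+tau liver and 9.77, 8.85 and 8.50 in NP liver. NP replicate 1, the lowest array for the members, was the highest for these 3 lists and for the adipocyte markers (5.74, against 5.70 in NP replicate 2). It was not the highest for endothelial markers (7.37, against 7.49 in NP replicate 2) or erythroid markers (6.34, against 6.57 in NP replicate 3). Nor was it for Schwann cell markers (6.05, against 6.64 in NP+tau replicate 1). The 10 hepatocyte markers averaged lowest in NP replicate 1, at 13.3, against 13.42 to 13.59 in the other livers. Of the 5 adipocyte markers measured, 3 were below the filter on dim probe sets. The part of these cells in the member differences was not tested.

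In muscle, no member passed the test of NP+tau against NP either, and few members separated the groups. With limma, 0 of 82 had an adjusted p under 0.05 (0% of 29274 probe sets in each direction), and 0 had an unadjusted p under 0.05, against 3.72% of all probe sets higher and 2.40% lower. As in liver, these counts used the brightest probe set per gene. Other kept probe sets with an unadjusted p under 0.05 were of Uqcr10 (0.69), Ndufab1 (0.99 and 0.81), Ndufa10 (0.76) and Ndufc2 (-0.44). Of the 46 genes with another kept probe set in muscle, 34 had the same sign in all. The difference was above 0 for 58 members, 70.7%, against 51.8% of all probe sets, and below 0 for 24, against 48.2% of all, with a median of 0.09 against 0.01. Members were mostly bright, with 75 of the 82 above percentile 95 of the muscle levels. With a stricter filter on dim probe sets (percentile 50), 70.7% of members were above 0, against 58.5% of all probe sets. The groups did not overlap for 3 higher members, 3.66%, against 7.33% of all probe sets, namely Uqcrb, Uqcrc2 and Cox6b1, and for 2 lower members, 2.44%, against 7.77%, namely Cox4i2 and Cox8a. Leaving out NP replicate 1 put the median at -0.02 with 40.2% of members above 0, and leaving out NP+tau replicate 1 put it at -0.01 with 46.3% above 0, so the direction of the muscle members rested on those 2 samples. In a comparison chosen after seeing the data, without both NP+tau replicate 1 and NP replicate 1, the median was -0.10. With 1 sample left out, groups overlap less often in all probe sets. Members higher without overlap then made up 25.6% without NP+tau replicate 2, against 15.2% of all probe sets, and 9.76% to 12.2% without NP+tau replicate 3, NP replicate 3 or NP replicate 2, against 9.94% to 14.7% of all. Without NP+tau replicate 1, 13.4% of members were lower without overlap, against 15.7% of all.

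By complex, the muscle medians were 0.08 for complex I (24 of 33 members above 0), 0.16 for complex II (4 of 4), 0.15 for complex III (9 of 9), -0.01 for complex IV (9 of 18) and 0.09 for complex V (11 of 17). Uqcrb, a ubiquinone-binding subunit of complex III, was at 14.07, 14.07 and 13.95 in NP+tau muscle and 13.84, 13.83 and 13.93 in NP muscle (difference 0.16, SE 0.13). The groups were separated by a narrow margin. The core protein Uqcrc2 was at 12.83, 12.77 and 12.74 in NP+tau muscle and 12.34, 12.72 and 12.70 in NP muscle (difference 0.20, SE 0.16), and Cox6b1 of complex IV differed by 0.14 (SE 0.14). NP replicate 1 was the lowest muscle for both of these. The other core protein, Uqcrc1, had the highest difference of complex III, 0.22 (SE 0.18), and Uqcr11 the lowest, 0.05 (SE 0.22). Cyc1 differed by 0.12 (SE 0.24), Uqcrfs1 by 0.18 (SE 0.15) and Cycs by 0.11 (SE 0.21).

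Cox7a1 had the highest muscle difference of all members. It was at 12.33, 12.13 and 12.28 in NP+tau muscle and 10.89, 12.17 and 12.08 in NP muscle. NP replicate 1 alone was low, by more than 1 on the log2 scale, and the groups overlapped. The means were 12.2 ± 0.102 in NP+tau and 11.7 ± 0.713 in NP (SD, n = 3 each), a difference of 0.53 (SE 0.34, adjusted p = 0.710, limma), and 0.12 without NP replicate 1. Its partner form Cox7a2 differed by -0.02 (SE 0.19). The muscle forms Cox6a2 (-0.12, SE 0.15) and Cox8b (-0.09, SE 0.15) had negative differences, as had Cox8a (-0.17, SE 0.13), at 9.59, 9.41 and 9.54 in NP+tau muscle and 9.75, 9.66 and 9.64 in NP muscle. Cox8a and Cox4i2 (-0.19, SE 0.14) were the complex IV members whose NP+tau values lay wholly below NP. Cox6b2 (-0.23, SE 0.20), Cox8c (-0.25, SE 0.16), Cox6a1 (-0.08, SE 0.30), Cox7a2l (-0.09, SE 0.14), Cox4i1 (0.07, SE 0.13), Ndufa4 (0.03, SE 0.13), Ndufa4l2 (0.01, SE 0.20) and Cox7c (0.33, SE 0.22) overlapped.

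Among the electron entry complexes of muscle, Ndufs1 of complex I was at 12.20, 11.75 and 11.85 in NP+tau muscle and 11.18, 11.76 and 11.82 in NP muscle (difference 0.34, SE 0.22), with 0.14 without NP replicate 1, the lowest muscle. Ndufb2 differed by 0.33 (SE 0.26), with NP replicate 1 at 11.01 and the other 5 muscles at 11.76 to 12.10, and by 0.048 without that sample. Ndufa7, an accessory subunit, had the lowest difference of complex I, -0.12 (SE 0.14). The 4 Sdh genes had differences of 0.01 for Sdhd, 0.14 for Sdha, 0.18 for Sdhb and 0.27 for Sdhc (SE 0.14 to 0.28). In complex V the range ran between -0.13 for Atp5g2 and 0.18 for Atp5k, and Atp5k differed by 0.033 without NP replicate 1.

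The extremes of muscle lay in the same numbered samples as in liver, although the labels do not tie a liver to a muscle. Over all probe sets kept in both tissues, same-numbered liver and muscle deviations correlated at 0.22, 0.22 and 0.22 in NP+tau. In NP these correlations were 0.01, 0.24 and -0.04, and liver NP replicate 1 correlated at 0.18 with muscle NP replicate 3. NP+tau replicate 1 was the highest of the 6 muscles in 59 of the 82 members (72.0%, against 13.4% of all probe sets), and NP replicate 1 the lowest in 52 (63.4%, against 22.3%). NP+tau replicate 2 was the lowest in 21 (25.6%, against 19.5%). NP replicate 1 was the lowest sample of both tissues for 32 members (39.0%, against 3.33% of the 25622 probe sets kept in both tissues), and NP+tau replicate 1 the highest of both for 30 (36.6%, against 3.38%). The mean level of the 8 markers of slow oxidative fibres, which are rich in mitochondria, was 12.60, 11.25 and 11.91 in NP+tau muscle and 11.92, 11.34 and 11.98 in NP muscle. It was highest in NP+tau replicate 1, but NP replicate 1 was not its lowest, and its part in the member values was not tested. The skeletal muscle fibre markers were lowest in NP replicate 1, at 14.03, against 14.32 to 14.35 in the other 5 muscles.

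The difference between NP+tau and NP was compared between liver and muscle by an interaction over all 12 arrays. Of 82 members, 0 had an adjusted p under 0.05 (0% of 25622 probe sets in each direction), and the smallest adjusted p was 0.542 (limma). At an unadjusted p under 0.05 there were 0 with a higher difference in liver (2.45% of all probe sets) and 1 with a lower one (5.35% of all), Cox7a2l, whose difference was -0.61 in liver and -0.09 in muscle (liver minus muscle -0.52, SE 0.23, limma). The next 3 were the complex IV isoforms Cox6a2 (liver minus muscle 0.45, SE 0.22), Cox8b (0.81, SE 0.49, and 0.42 without NP+tau replicate 1) and Cox4i2 (0.34, SE 0.21). The median over the members was 0.08, against -0.13 over all probe sets, and -0.03 without NP+tau replicate 2. Of the 82 members, 45 were above 0 in both tissues, 6 below in both, 18 above in liver and below in muscle, and 13 the reverse.

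**Figure D5:**
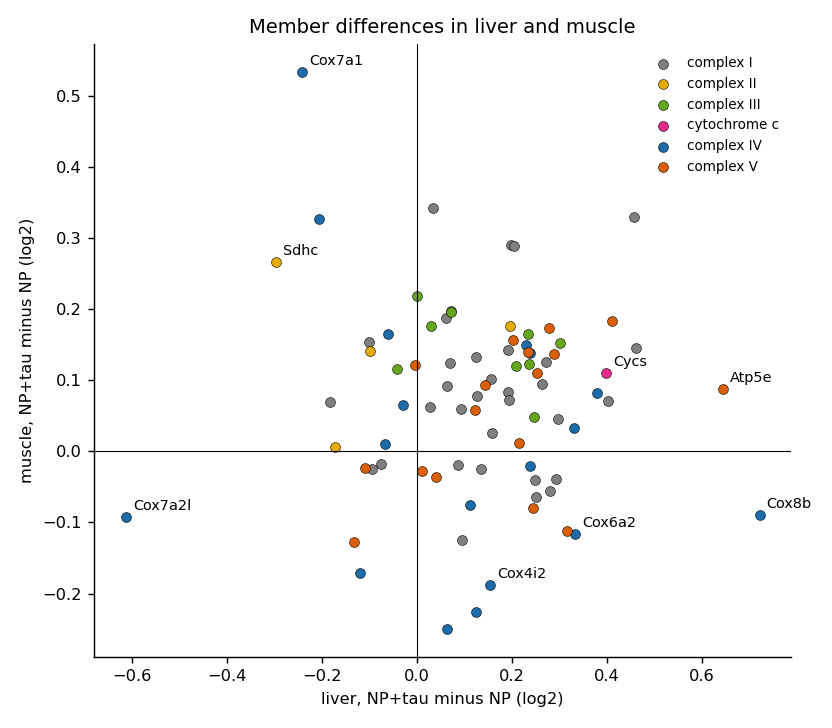
Difference NP+tau minus NP of the 82 members in liver (horizontal axis, log2) and muscle (vertical axis, log2), coloured by complex. The upper right part holds 45 members, Cox7a2l lies far to the left at -0.61 and Cox7a1 at the top at 0.53.

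Genes that assemble and feed the complexes were read from fixed lists beside the subunits. In liver 0 genes of these lists had an adjusted p under 0.05 (limma), and at an unadjusted p under 0.05 there were 3 higher and 2 lower of 73 (4.11% and 2.74%, against 0.700% and 3.99% of all probe sets). The difference was above 0 for 38 of the 73, 52.1%, against 45.8% of all, or 39.7% of all with the stricter filter. Of 17 complex I assembly factors 13 were above 0 in liver, of 4 for complex II 3, of 6 for complex III 4, of 21 for complex IV 11, and of 4 for ATP synthase 0. Timmdc1, a membrane-bound assembly factor of complex I, was at 7.32, 7.46 and 7.28 in NP+tau liver and 6.38, 6.93 and 6.89 in NP liver (difference 0.62, SE 0.21, adjusted p = 0.718, limma). All NP+tau livers were above all NP livers, as for Coa3, an assembly factor of complex IV (0.48, SE 0.20). For the other lists the smallest p belonged to Ttc19 of complex III (-0.42, SE 0.20), Sdhaf4 of complex II (0.24, SE 0.19) and Atpaf2 of ATP synthase (-0.19, SE 0.30).

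Of the 10 genes of electron entry and ATP export 5 were above 0 in liver. Slc25a4, the muscle form of the carrier that exchanges ADP for ATP across the inner membrane, was at 9.14, 9.28 and 9.93 in NP+tau liver and 11.27, 10.93 and 10.33 in NP liver (difference -1.40, SE 0.32, adjusted p = 0.718, limma). No NP+tau value reached the NP values. Prodh, which feeds electrons of proline into the chain, had the largest difference of the list in the other direction, with 10.62, 10.32 and 9.67 in NP+tau liver and 7.49, 8.01 and 9.67 in NP liver (difference 1.81, SE 0.56, adjusted p = 0.718, limma). NP replicate 3 was level with NP+tau replicate 3. Slc25a5, the form common to most tissues, differed by -0.05 (SE 0.20) in liver. Of the 11 regulators of respiratory genes, 2 were above 0 and 9 below in liver. Ppargc1a, the coactivator that drives mitochondrial gene programmes, was at 6.08, 5.38 and 7.16 in NP+tau liver and 7.85, 7.99 and 7.24 in NP liver (difference -1.49, SE 0.45, adjusted p = 0.718, limma). The groups did not overlap, with NP+tau replicate 3 close to NP replicate 3. Tfam, which packs and transcribes mitochondrial DNA, differed by -0.70 (SE 0.61), Gabpa by -0.29 (SE 0.31), Nrf1 by -0.22 (SE 0.30) and Esrra by -0.20 (SE 0.17), all with overlap and with NP+tau replicate 1 as the lowest liver.

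In muscle 0 genes of these lists had an adjusted p under 0.05 (limma), and at an unadjusted p under 0.05 there were 3 higher and 1 lower of 73 (4.11% and 1.37%, close to the 3.72% and 2.40% of all probe sets). The difference was above 0 for 60 of the 73, 82.2%, against 51.8% of all, or 58.5% of all with the stricter filter. Of the assembly factors, 15 of 17 complex I assembly factors, 4 of 4 for complex II, 4 of 6 for complex III, 19 of 21 for complex IV and 3 of 4 for ATP synthase were above 0. Cox19, a factor of complex IV assembly, was at 10.07, 10.30 and 9.72 in NP+tau muscle and 9.09, 9.59 and 9.61 in NP muscle (difference 0.60, SE 0.22, adjusted p = 0.707, limma). The groups did not overlap, with NP replicate 1 lowest. In the other assembly lists the smallest p belonged to Tmem186 of complex I (0.75, SE 0.27), Ttc19 of complex III (0.64, SE 0.28), Sdhaf3 of complex II (0.56, SE 0.31) and Atpaf2 of ATP synthase (0.24, SE 0.18). Of the 10 genes of electron entry and ATP export 7 were above 0, with the smallest p for Etfdh, which passes electrons of fatty acid oxidation to ubiquinone (0.36, SE 0.18). Of the regulators, 8 of 11 were above 0 in muscle, with the smallest p for Tfb1m, a mitochondrial rRNA methyltransferase (0.44, SE 0.20). Tfam was at 8.78, 8.96 and 8.78 in NP+tau muscle and 8.36, 8.74 and 8.58 in NP muscle (difference 0.28, SE 0.16), without overlap. Ppargc1a differed by -0.35 (SE 0.27), Gabpa by 0.30 (SE 0.27), Esrra by -0.13 (SE 0.19) and Nrf1 by -0.11 (SE 0.35), all with overlap.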

How the data were processed

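RNA from 3 livers and 3 quadriceps muscles per diet group was measured on Affymetrix mouse whole-genome arrays. The deposited log2 values are those of the authors, who normalized the arrays of each tissue separately by quantiles and summarized probes with RMA. They cover 45101 probe sets, 64 of them controls, which were left out. Symbols came from the platform annotation (34945 probe sets with 1 symbol, 932 with several, 9160 with none), and 174 probe sets carried a single member symbol. Probe sets named _s_at or _x_at hold probes that match more than 1 transcript, and members rested on 12 _s_at and 5 _x_at sets in liver and 13 and 5 in muscle. Dim probe sets, whose maximum over the 6 arrays of a tissue was under percentile 35 of all such maxima, were left out, which kept 29274 of 45037 in each tissue. NP+tau minus NP was fitted per tissue with limma 3.58.1 in R 4.3.3 over all probe sets kept, with Benjamini-Hochberg adjustment and a threshold of 0.05, and the interaction over the 25622 kept in both. The fits were tested on simulated data with known changes in probe sets drawn from all that were kept, not from the members. A log2 change of 1 was called in 9% of the changed probe sets in liver, 24% in muscle and 6% for the interaction. A change of 2 was called in 53%, 78% and 57%. An exact permutation test of 3 against 3 cannot go below p = 0.1. All columns of the table belonged to labelled samples. The number of arrays limits the precision.

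Genes were named by rule: complex IV isoforms, Sdh genes, Cycs, Cyc1 and Uqcrfs1, the core subunits of complex I by their range, the 6 higher and 6 lower members with the smallest p per tissue, the extremes of each complex, the 4 smallest interaction p, the smallest p of each pathway list, and Ppargc1a, Tfam, Nrf1, Gabpa and Esrra. Other genes were named after their values were seen. The lists held assembly factors of each complex, electron entry and ATP export, regulators, and markers of other cells. Members, lists and motifs were chosen with earlier results of these data known. Figures were drawn with matplotlib 3.10.9. Alternatives were other filters, an intensity trend, array weights, centring, Xist as a covariate, the mean of probe sets, a replicate block and leaving out replicates.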

Additional observations from a re-analysis of the deposited data

How the results depend on the processing

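Over 15 alternative settings per tissue, 19 of 30 named liver members and 16 of 30 named muscle members kept their sign throughout, as did the 4 named differences between tissues over 11 settings. No member was called in any setting except with the Xist level as a covariate in liver, where 10 members were (7 higher and 3 lower, 12.2%, against 32.3% of all probe sets), the smallest adjusted p being 0.00653. In that fit the 3 NP livers and NP+tau replicate 1 share a high Xist level, so by construction the diet term leans on replicate 1. It gave Cox6b2 -0.58, Cox8c -0.00629, Ndufa4l2 0.26 and Uqcrfs1 -0.30 in liver, and Cox6a2 0.10, Cox7a2 0.17, Cox8b 0.12 and Ndufa7 0.027 in muscle. Centring each array on its median gave a median member difference of 0.27 in liver and 0.31 between tissues, 0 muscle members higher without overlap, liver values of 0.084 for Cox4i1, 0.045 for Ndufa4l2, 0.015 for Sdha and 0.071 for Uqcrh, and muscle values of -0.024 for Ndufa4, -0.047 for Ndufa4l2, -0.050 for Sdhd and -0.0086 for Uqcr11. Array weights gave 0.00836 for Cox4i1, 0.067 for Cox8a, 0.085 for Sdhd and 0.052 for Uqcrh in liver and -0.016 for Cycs in muscle. The mean of all probe sets gave -0.088 for Cox8c in liver. The cause of these changes was not tested in any setting.

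Leaving out 1 replicate at a time gave 3 to 21 muscle members higher without overlap (3.66% to 25.6%, against 9.94% to 15.2% of all probe sets in the same settings). Liver ranges that crossed 0 were -0.069 to 0.018 for Cox4i1, -0.27 to 0.46 for Cox6b2, -0.69 to 0.17 for Cox7a1, -0.32 to 0.18 for Cox8a, -0.047 to 0.16 for Cox8c, -0.21 to 0.091 for Ndufa4l2, -0.31 to 0.089 for Sdha, -0.52 to 0.10 for Sdhc, -0.43 to 0.23 for Sdhd, -0.098 to 0.18 for Uqcrfs1 and -0.13 to 0.066 for Uqcrh. Muscle ranges that did were -0.31 to 0.20 for Cox6a1, -0.15 to 0.13 for Cox7a2, -0.10 to 0.27 for Cyc1, -0.11 to 0.24 for Cycs, -0.016 to 0.082 for Ndufa4, -0.16 to 0.11 for Ndufa4l2, -0.23 to 0.29 for Sdhd and -0.12 to 0.22 for Uqcr11. Without both replicates 1, liver gave 0.033 for Cox4i1, 0.072 for Cox8a, -0.011 for Cox8c, 0.057 for Sdhd and 0.080 for Uqcrh. In muscle, where this setting was chosen after seeing the data, the median member difference was -0.10, with -0.057 for Ndufa4, -0.27 for Ndufa4l2, -0.094 for Sdhb, -0.37 for Sdhd, -0.092 for Cycs, -0.24 for Cyc1, -0.051 for Ndufb2, -0.25 for Uqcr11 and -0.040 for Atp5k.

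Across diets, deviations of samples with the same number correlated at 0.02, -0.11 and 0.11 in liver and -0.21, -0.27 and 0.33 in muscle. In muscle the highest correlations were between different numbers. They were 0.40 for NP+tau replicate 1 with NP replicate 2 and 0.39 for NP+tau replicate 2 with NP replicate 1. In liver the highest was 0.13, for NP+tau replicate 1 with NP replicate 2. The numbers therefore do not pair the samples, and a block on other pairs was not fitted. With the replicate number as a replicate block, limma called 0 members in either tissue, and the median member difference stayed at 0.16 in liver and 0.09 in muscle. With diet and replicate number as a replicate block across tissues, although the labels do not tie a liver to a muscle, 0 members differed between tissues, with a median of 0.08. With 3 arrays per group, differences of the size of most members' standard errors cannot be told from 0. In simulated data most log2 changes of 1 were missed too. Those changes were put into probe sets drawn from all that were kept, with noise independent between probe sets and arrays. The rates are therefore not those of the members, whose median SE was 0.184 against 0.242 over all probe sets in liver. In muscle it was 0.167 against 0.189. That 0 members were called does not show that none changed.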
